A study of Rattus norvegicus with 4 samples.

Results

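Complement, phagocyte and leukocyte adhesion transcripts were measured in rat cortex ipsilateral to an induced stroke through 10 genes: C3, C1qb, Fcgr2b, Lyz2, Ptprc, S100a8, S100a9, Icam1, Selp and Cd14. They were taken as every probe set whose only gene symbol in the platform annotation was one of these names, which gave 16 of the 8740 non-control probe sets of the array. Animals given 17beta-estradiol were compared with animals given placebo. All animals of both groups were ovariectomised female rats whose middle cerebral artery was closed for 2 h from inside the vessel. Each group had 2 arrays (estradiol 1 and 2, placebo 1 and 2), each made from RNA of 3 animals combined, so 6 animals stood behind a group and no value belongs to a single rat. Tissue came from the core of that artery's territory. The study sampled at 6 and 24 h, each array code carries a 6 that no label explains in words, and uninjured cortex was not analysed here, so the comparison concerns the hormone in injured tissue and not the injury itself.

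Complement is a cascade of blood and tissue proteins that marks damaged cells and debris, and C1q and C3 are its starter and its hub. In the injured brain, microglia and incoming monocytes and neutrophils take up debris through such marks and through Fc receptors. Leukocytes leave the blood by rolling on selectins and then holding to ICAM-1 on activated endothelium. Estradiol is studied in stroke models in part for its actions on these inflammatory steps.

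The promoters of 7 of the 10 genes were found in a RefSeq table of build GRCr8. The 250 bases before the transcription start of 4 of them are shown, 1 for complement (C1qb, chr5:154407828-154408077, minus strand), 1 for the endotoxin receptor (Cd14, chr18:28611159-28611408, minus strand), 1 for a neutrophil protein (S100a9, chr2:178490623-178490872, minus strand) and 1 for an endothelial adhesion molecule (Icam1, chr8:27829595-27829844, plus strand). Capitals mark letters, on either strand, of the C/EBP-type motif TTNNGNAA, the PU.1 purine box GAGGAA and the TATA box TATAAA. C/EBP factors and PU.1 are transcription factors of the myeloid lineage.
C1qb: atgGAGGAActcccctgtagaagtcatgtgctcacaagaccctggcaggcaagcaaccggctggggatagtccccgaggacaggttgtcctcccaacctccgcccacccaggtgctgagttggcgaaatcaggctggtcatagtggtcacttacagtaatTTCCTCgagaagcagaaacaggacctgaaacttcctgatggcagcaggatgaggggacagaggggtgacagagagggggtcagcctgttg
Cd14: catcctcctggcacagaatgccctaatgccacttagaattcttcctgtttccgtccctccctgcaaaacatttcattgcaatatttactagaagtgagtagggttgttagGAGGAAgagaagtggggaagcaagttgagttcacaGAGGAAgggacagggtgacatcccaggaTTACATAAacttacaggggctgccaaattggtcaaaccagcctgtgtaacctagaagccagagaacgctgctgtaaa
S100a9: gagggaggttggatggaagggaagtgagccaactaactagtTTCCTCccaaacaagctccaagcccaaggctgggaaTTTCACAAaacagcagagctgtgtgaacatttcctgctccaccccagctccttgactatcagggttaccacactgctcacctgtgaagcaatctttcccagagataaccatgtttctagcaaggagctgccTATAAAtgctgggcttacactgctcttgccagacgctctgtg
Icam1: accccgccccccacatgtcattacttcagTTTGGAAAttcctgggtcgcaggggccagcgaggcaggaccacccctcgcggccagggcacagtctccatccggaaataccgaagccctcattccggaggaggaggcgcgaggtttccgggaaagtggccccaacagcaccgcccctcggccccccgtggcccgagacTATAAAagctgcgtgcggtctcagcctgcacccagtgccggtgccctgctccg
Both Cd14 and S100a9 carried the C/EBP-type letters and the PU.1 box, C1qb the PU.1 box at 2 places, and Icam1 the C/EBP-type letters. In all, 6 of 7 promoters held the C/EBP-type motif, against 37.2% of all 33469 promoters in the table, and 5 of 7 the PU.1 box, against 23.3%. The TATA box stood in 2 of 7, against 12.9%. The palindromic estrogen response element was in 0 of 7 windows and in 0.0239% of all promoters. A match is a run of letters and not a shown binding site.

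Intensities are the deposited linear values, scaled by the authors to a common level per array. Array medians lay between 55.0 and 57.8. Background was taken from 23 control probe sets of bacteria, yeast and mouse, which rat RNA should not bind. Their brightest had 33.9 and 37.8 for estradiol, against 37.8 and 30.1 for placebo. A probe set at or below that level on an array is called at background there. Of the 16 member probe sets, 12 were above background on all 4 arrays and 4 were at background on all 4. The tests ran on the 5244 probe sets whose mean intensity reached 37.5, which kept the same 12, from 9 of the 10 genes. Fold changes are estradiol over placebo on log2(intensity + 16), with the standard error (SE) of the fit, n = 2 pools a group. In bulk tissue, fewer cells of a type and less RNA per cell cannot be told apart.

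**Figure D1:**
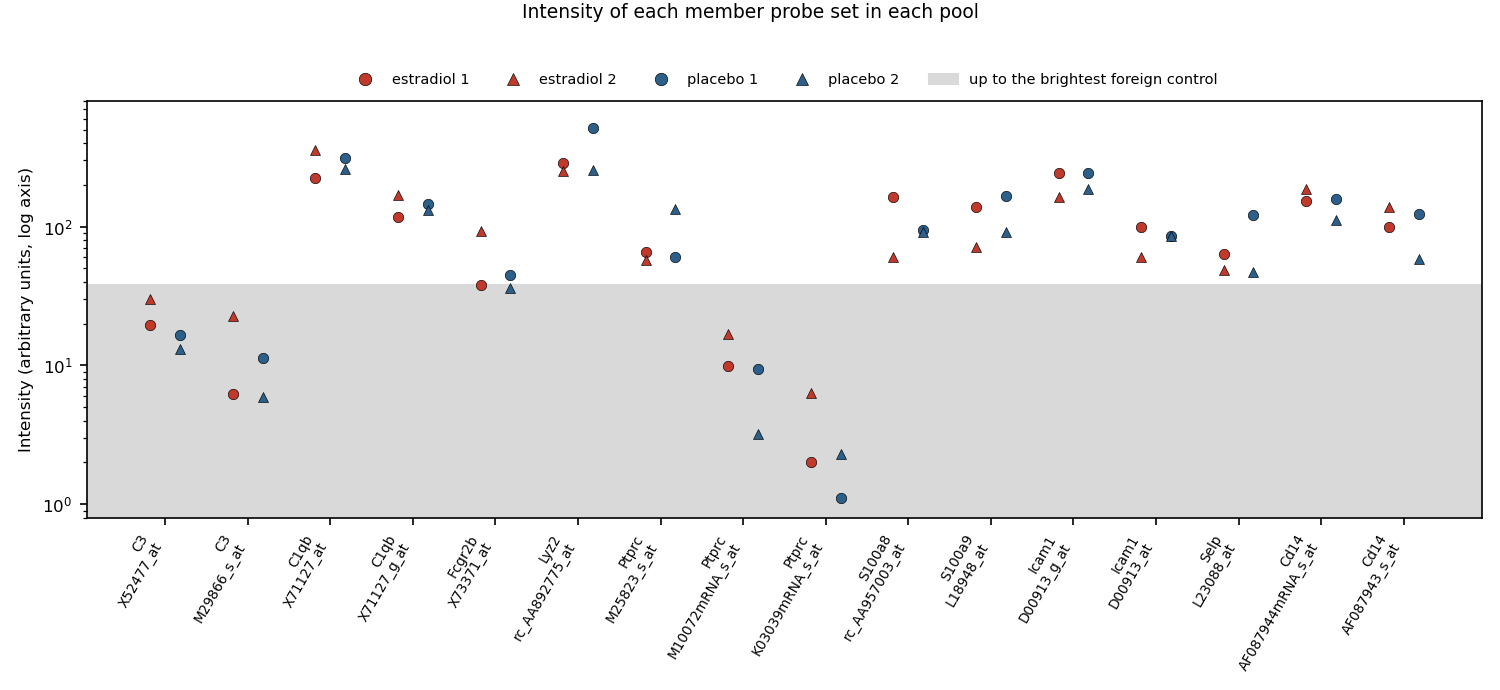
Intensity (log axis) of the 16 member probe sets in the 2 estradiol pools (left of each tick) and the 2 placebo pools (right). Grey marks intensities up to 37.8, the highest foreign control of any array. C3 and 2 of 3 Ptprc probe sets lie in it on all arrays, and the groups overlap for each of the other 12, which were above the background of every array (placebo 2 of Fcgr2b, at 36.1, lies within the grey but above that array's 30.1).

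No difference between treatments was detectable for the 9 genes that could be tested, and C3 was at background. With limma and Benjamini-Hochberg adjustment over all tested probe sets, 0 of 12 member probe sets passed an adjusted p of 0.05, where the share over all tested probe sets was 0%. The adjusted p was 0.998 for each of the 12, and the lowest of any probe set on the array was 0.285. At an unadjusted p below 0.05 the count was again 0 of 12, where 3.07% of all tested probe sets met this limit. The estradiol and placebo pools overlapped for each of the 12 member probe sets, whereas the groups did not overlap for 29.7% of all tested probe sets. For a single probe set, a two-sided exact permutation test of 2 pools against 2 cannot give a p under 0.333, and the members' lowest was 0.667.

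The fitted log2 fold changes lay between -0.47 (Ptprc) and 0.45 (Fcgr2b), with 5 above 0 and 7 below. Their median was -0.05, against 0.01 over all tested probe sets. SEs ran from 0.25 to 0.40, so the intervals were wide. The sign of 11 of 12 turned when 1 array was left out, the exception being a Cd14 probe set. The share of all tested probe sets that did so is not given here. At least 1 difference between pools of a treatment exceeded that between treatments in 12 of 12 members, against 81.5% of all tested probe sets.

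**Figure D2:**
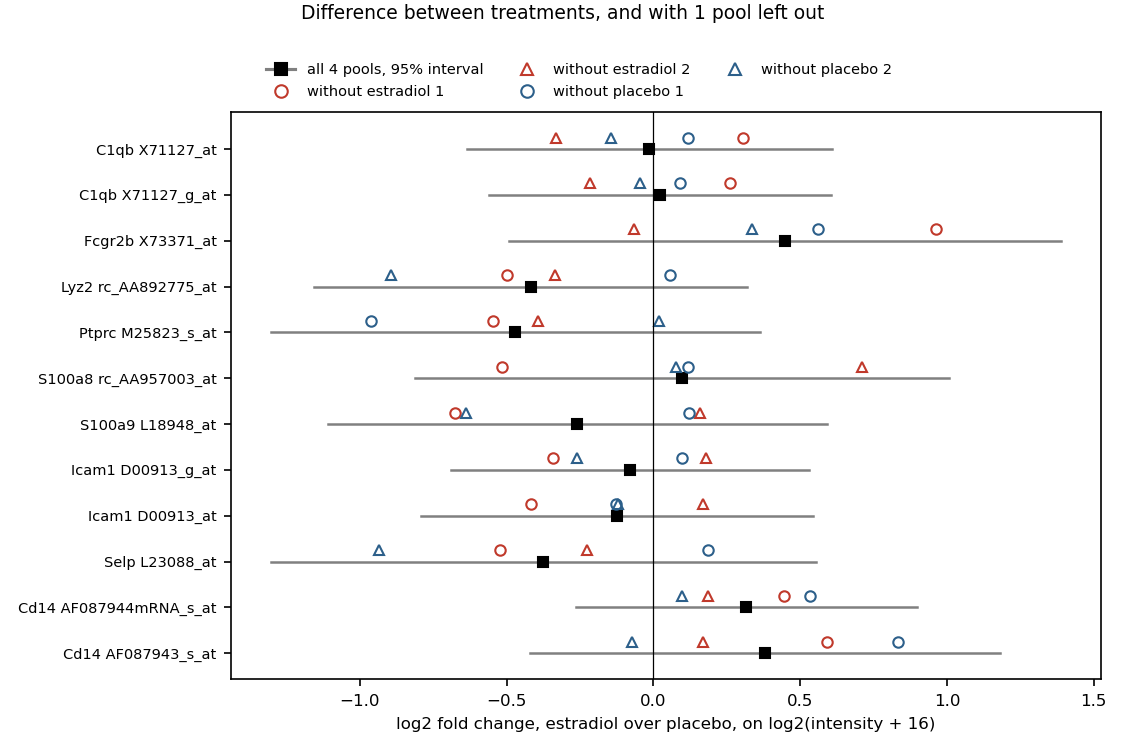
Log2 fold change, estradiol over placebo, of the 12 tested member probe sets with all 4 pools (squares, with 95% intervals) and with 1 pool left out (open symbols). All 12 intervals include 0, and open symbols lie on both sides of 0 for 11 of them.

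Of the complement genes, C1qb was well measured and did not differ beyond its spread, and C3 could not be compared. C1qb encodes a chain of C1q, which recognises antibody and debris and is made in brain largely by microglia. Its probe set X71127_at stood at 222.7 and 355.3 in the pools given estradiol, against 313.1 and 258.5 in those given placebo. Both placebo values lay between the estradiol values. The log2 fold change was -0.014 ± 0.27 (SE), with a 95% interval from -0.64 to 0.61. The companion probe set X71127_g_at, designed on the same sequence record, stood at 116.8 and 168.8 under estradiol, against 145.9 and 131.0 under placebo and gave 0.022 ± 0.25 (SE). It ordered the 4 pools in the same way. Without estradiol 1 the values were 0.30 and 0.26, and without estradiol 2 they were -0.33 and -0.22.

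C3, the protein whose cleavage the complement pathways share, was at background on every array. X52477_at stood at 19.5 and 30.0 under estradiol, against 16.6 and 13.1 under placebo. M29866_s_at stood at 6.2 and 22.9 under estradiol, against 11.3 and 5.9 under placebo. No level or fold can be read from either, and neither was tested.

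Other complement genes lay on both sides of 0 and did not pass. Of 19 listed genes on the array, 10 were tested, 5 with log2 fold changes above 0 and 5 below, and 0 passed. Their median was -0.04 (0.07 without estradiol 1 and -0.06 without placebo 2). C1qc, another C1q chain, stood at 320.3 and 251.8 under estradiol, against 239.0 and 275.5 under placebo, a log2 fold change of 0.14 ± 0.22 (SE). It had its highest value in estradiol 1, where both C1qb probe sets had their lowest. The C5a receptor gene C5ar1 gave 0.03 ± 0.23 (SE), and the C3a receptor gene C3ar1 was at background on all arrays. The highest value in the list was 0.21 for Cd59b, a membrane inhibitor of the final complement pore, and the lowest among genes above background on all arrays was -0.39 for Cfp, which encodes properdin, a stabiliser of the alternative pathway. C8b, a component of the pore, was at background in pool 1 of each treatment and is given no fold.

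The phagocyte receptors Cd14 and Fcgr2b had the highest fitted values, and neither passed. CD14 hands bacterial lipopolysaccharide and related ligands to TLR4. Its probe set AF087944mRNA_s_at stood at 154.0 and 187.6 under estradiol, against 157.8 and 112.6 under placebo, and AF087943_s_at at 98.8 and 137.6 under estradiol, against 123.8 and 58.5 under placebo. The low value was placebo 2 in both, and placebo 1 lay between the estradiol pools. The log2 fold changes were 0.32 ± 0.25 (SE; 95% interval -0.27 to 0.90) and 0.38 ± 0.34 (SE; -0.42 to 1.18). Without placebo 2 they were 0.098 and -0.074. Tlr4, the signalling partner, and Lbp, the lipopolysaccharide carrier, were at background on all arrays.

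Fcgr2b encodes the inhibitory low-affinity receptor for IgG. It stood at 37.9 and 93.8 under estradiol, against 45.0 and 36.1 under placebo, so estradiol 2 stood apart and the other 3 pools lay just above background. The log2 fold change was 0.45 ± 0.40 (SE; 95% interval -0.49 to 1.39), and -0.065 without estradiol 2.

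Lyz2 and Ptprc, which many leukocytes share, had the lowest fitted values. Lyz2, the lysozyme of macrophages and other myeloid cells, stood at 285.6 and 253.6 under estradiol, against 513.6 and 257.9 under placebo. Placebo 1 stood above the other 3 pools, which lay close together. The log2 fold change was -0.42 ± 0.32 (SE; 95% interval -1.16 to 0.32), and 0.058 without placebo 1.

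Ptprc encodes CD45, the phosphatase on all nucleated blood cells. Of its 3 probe sets, M25823_s_at was above background and stood at 65.5 and 57.3 under estradiol, against 60.2 and 134.5 under placebo. Here the high pool was placebo 2. The log2 fold change was -0.47 ± 0.36 (SE; 95% interval -1.30 to 0.36), and 0.021 without placebo 2. M10072mRNA_s_at stood at 9.9 and 16.8 under estradiol, against 9.4 and 3.2 under placebo, and K03039mRNA_s_at at 2.0 and 6.3 under estradiol, against 1.1 and 2.3 under placebo. Both were at background throughout, so 1 of 3 probe sets carries what is known of Ptprc here.

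Other microglia and macrophage genes did not pass either. Of 18 listed genes on the array, 11 were tested, 6 above 0 and 5 below, with a median of 0.14 (-0.02 without estradiol 1). Lgals3, the galectin of activated phagocytes, stood at 92.4 and 108.2 under estradiol, against 96.8 and 31.7 under placebo, which gave 0.66 ± 0.41 (SE), with the low value, just above background, again in placebo 2. Csf1 had the next highest value at 0.29 ± 0.23 (SE). Ctss, the lysosomal protease cathepsin S of microglia, stood at 966.1 and 1083.8 under estradiol, against 829.1 and 918.4 under placebo, 0.23 ± 0.19 (SE). Its groups did not overlap, as in 3 of the 11 genes and in 29.7% of all tested probe sets. Coro1a, an actin regulator of leukocytes, had the lowest value at -0.36 ± 0.28 (SE). Aif1, which encodes the microglial protein IBA1, stood at 44.8 and 36.0 under estradiol, against 39.2 and 49.1 under placebo, by the probe set that was tested, with estradiol 2 at background, and its other 2 were at background on all arrays. Itgam, the integrin chain CD11b, was at background on all arrays.

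S100a8 and S100a9 encode the 2 partners of calprotectin, a calcium-binding complex of neutrophils and monocytes. Their values ran in parallel between the estradiol pools but not in size between the placebo pools. S100a8 stood at 162.3 and 60.2 under estradiol, against 94.6 and 91.4 under placebo. S100a9 stood at 139.4 and 71.2 under estradiol, against 165.3 and 91.1 under placebo. Estradiol 1 exceeded estradiol 2 in both genes, by 1.23 for S100a8 and 0.83 for S100a9 on the log2 scale. Placebo 1 exceeded placebo 2 by 0.76 for S100a9 but by 0.04 for S100a8. The log2 fold changes between treatments were 0.10 ± 0.39 (SE; 95% interval -0.81 to 1.01) for S100a8 and -0.26 ± 0.37 (SE; -1.11 to 0.59) for S100a9. Without estradiol 1 that of S100a8 was -0.52 and without estradiol 2 it was 0.71. That of S100a9 was 0.16 without estradiol 2 and 0.12 without placebo 1. Of 8 other neutrophil genes on the array, 3 were tested and 0 passed. These were Cxcr1 with 0.23, Il1r2 with -0.07 and Lcn2, the lipocalin of neutrophils and reactive astrocytes, with -0.11.

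Of the adhesion molecules, Icam1 did not differ between treatments beyond the spread between pools, and Selp was set by a single pool. ICAM-1 is the endothelial ligand of the leukocyte integrin LFA-1. Its probe set D00913_g_at stood at 241.9 and 163.8 under estradiol, against 241.9 and 185.3 under placebo, with pool 1 of both treatments at the same level. The log2 fold change was -0.08 ± 0.26 (SE; 95% interval -0.69 to 0.53). D00913_at stood at 98.7 and 60.5 under estradiol, against 85.8 and 86.3 under placebo, -0.12 ± 0.29 (SE). The probe sets agreed in estradiol, where pool 1 exceeded pool 2, and differed in placebo. Without estradiol 2 they gave 0.18 and 0.17, and without estradiol 1 they gave -0.34 and -0.42.

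Selp encodes P-selectin, which endothelium and platelets store and put on their surface within minutes of activation. It stood at 63.2 and 48.5 under estradiol, against 120.8 and 46.8 under placebo. Placebo 1 lay above the other 3 pools, and placebo 2 was the lowest. The log2 fold change was -0.37 ± 0.40 (SE; 95% interval -1.30 to 0.55), and 0.19 without placebo 1. E-selectin (Sele), the selectin that endothelium makes on demand, stood at 64.6 and 18.6 under estradiol, against 41.4 and 18.2 under placebo. It was above background in pool 1 of each treatment and at background in pool 2 of each, and its mean was too low for the test.

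In the wider list of adhesion genes, 9 of 14 on the array were tested, 5 above 0 and 4 below, and 0 passed. Vcam1, the endothelial ligand of integrin VLA-4, gave 0.11 ± 0.23 (SE) and Pecam1, a junction protein of endothelium, -0.19 ± 0.27 (SE). Glycam1, a mucin that carries selectin ligands, stood at 34.9 and 98.3 under estradiol, against 23.5 and 17.9 under placebo, and was at background in both placebo pools (adjusted p = 0.998 in limma). Set against that background, estradiol was at least 1.74-fold higher, but 1.03-fold without estradiol 2, on which the value rests. Madcam1, a mucosal addressin, had the lowest at -0.33 ± 0.22 (SE). By 1 probe set a gene, markers of the vessel wall lay below 0 in 11 of 11 tested genes. The share of all tested probe sets below 0 is not given here, and their median was 0.01. A second tested probe set of the glucose transporter gene Slc2a1 gave 0.011, and the other Nos3 probe sets gave -0.21 and -0.013. In limma, 0 of the 11 genes passed the adjusted threshold and 2 had an unadjusted p below 0.05. The median of the 11 was -0.19 (-0.04 without placebo 1 and -0.40 without placebo 2). Their summed intensity was 2276 and 2069 under estradiol, against 2982 and 2244 under placebo, highest in the pool where Selp was highest. The largest part of it was Slc2a1, with 1127.5 and 825.5 under estradiol, against 1338.3 and 875.7 under placebo. Of 9 platelet and red cell genes on the array, 8 were tested, 2 above 0 and 6 below. In limma 0 passed the adjusted threshold and 4 had an unadjusted p below 0.05. These 4 were the globin genes Hbb, Hbb-b1 and Hba-a3, below 0, and Hbe2, above 0. Over all tested probe sets, 3.07% met this unadjusted limit, a share that applies to both lists. The median of the 8 was -0.48 (-0.57 without placebo 1 and -0.27 without estradiol 1). Their summed intensity, mostly haemoglobin, was 2108 and 4496 under estradiol, against 6356 and 5483 under placebo. Hbb, an adult beta globin that near-identical copies may share, stood at 958.7 and 2310 under estradiol, against 3517 and 3055 under placebo. Hbe2, an epsilon globin, went the other way, with 97.1 and 129.1 under estradiol, both above its placebo pools, of which placebo 2 was at background at 22.7. The platelet gene Pf4 stood at 77.2 and 62.9 under estradiol, against 110.5 and 108.4 under placebo. The platelet integrin gene Itga2b overlapped, with 86.9 and 80.2 under estradiol, against 86.9 and 104.3 under placebo. The groups did not overlap in the other 7 of the 8 genes, in either direction, against 29.7% of all tested probe sets. The part of vessel, platelet and red cell content in the Selp value was not tested.

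**Figure D3:**
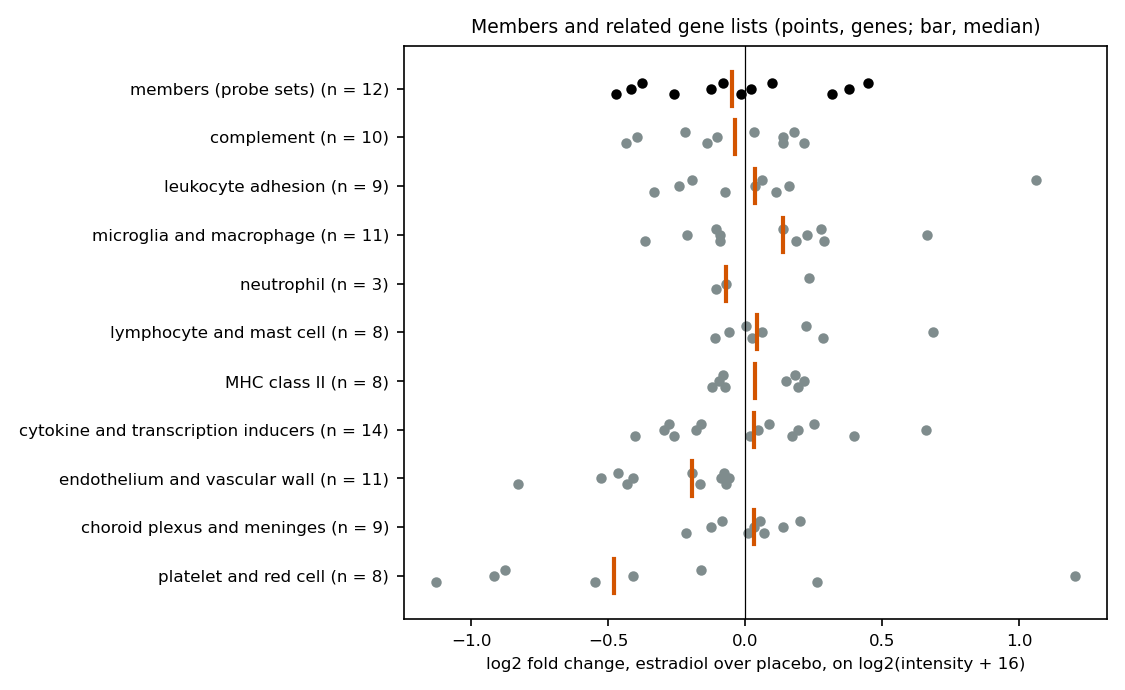
Log2 fold change, estradiol over placebo, of the 12 member probe sets (black) and of genes in related lists (grey, 1 probe set a gene), with the median of each as a bar. Members spread on both sides of 0, from -0.47 to 0.45, and the 11 vessel wall genes all lie below 0.

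Pools of the same treatment differed more in the median member than in the median tested probe set, a description for which no test was run. The median absolute difference between the 2 estradiol pools was 0.50 on the log2 scale for the 12 members and 0.26 for all tested probe sets. Between the placebo pools it was 0.40 for the members and 0.27 for all tested probe sets. Over the 3370 probe sets with mean intensities between the members' lowest and highest, 53.2 and 327.7, it was 0.27 in each treatment. Between treatments the median absolute log2 fold change was 0.29 for the members and 0.18 for all tested probe sets. Both differences between pools were larger than that between treatments in 5 of 12 members, against 45.1% of all tested probe sets.

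A pair of patterns over the pools, noticed once the values were seen, covered 10 of the 12 members. In 5 probe sets, those of C1qb (2), Cd14 (2) and Fcgr2b, estradiol 2 and placebo 1 were the highest pools, as in 14.6% of all tested probe sets. In another 5, those of Lyz2, S100a8, S100a9, Selp and Icam1 (D00913_g_at), estradiol 1 and placebo 1 were the highest, as in 17.4% of all tested probe sets. The margin was small in some of both groups of probe sets. In the first, Cd14 AF087944mRNA_s_at had 157.8 in placebo 1 against 154.0 in estradiol 1. In the second, S100a8 had 94.6 against 91.4 between the placebo pools, and Lyz2 had 285.6 in estradiol 1 against 257.9 in placebo 2. Ptprc and the other Icam1 probe set had neither order.

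Some lists of tissue markers had these orders more often than all tested probe sets did, and others did not. Choroid plexus and meninges markers were highest in estradiol 2 and placebo 1 in 5 of 9 tested genes, with summed intensities of 2287 and 6801 under estradiol, against 11983 and 1293 under placebo. Ttr, the transthyretin of choroid plexus, was among these 5 and made up most of the sum in estradiol 2 and placebo 1. It stood at 165.3 and 4312 under estradiol, against 8034 and 74.3 under placebo. MHC class II genes had 3 of 8 in this order and 3 of 8 in the other. Oligodendrocyte markers were highest in estradiol 1 and placebo 1 in 7 of 7 genes, with sums of 17579 and 13263 under estradiol, against 21862 and 14057 under placebo. None of the tested markers of the choroid plexus, MHC class II and oligodendrocyte lists was at background in all 4 pools. Vessel wall genes had 4 of 11 in the first order and 3 of 11 in the second. Microglia and macrophage genes had 2 and 1 of 11, complement genes 1 and 2 of 10, and adhesion genes 1 and 2 of 9. Neuron markers had 0 of 14 in either order. The part of any of these lists in the members' values was not tested.

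**Figure D4:**
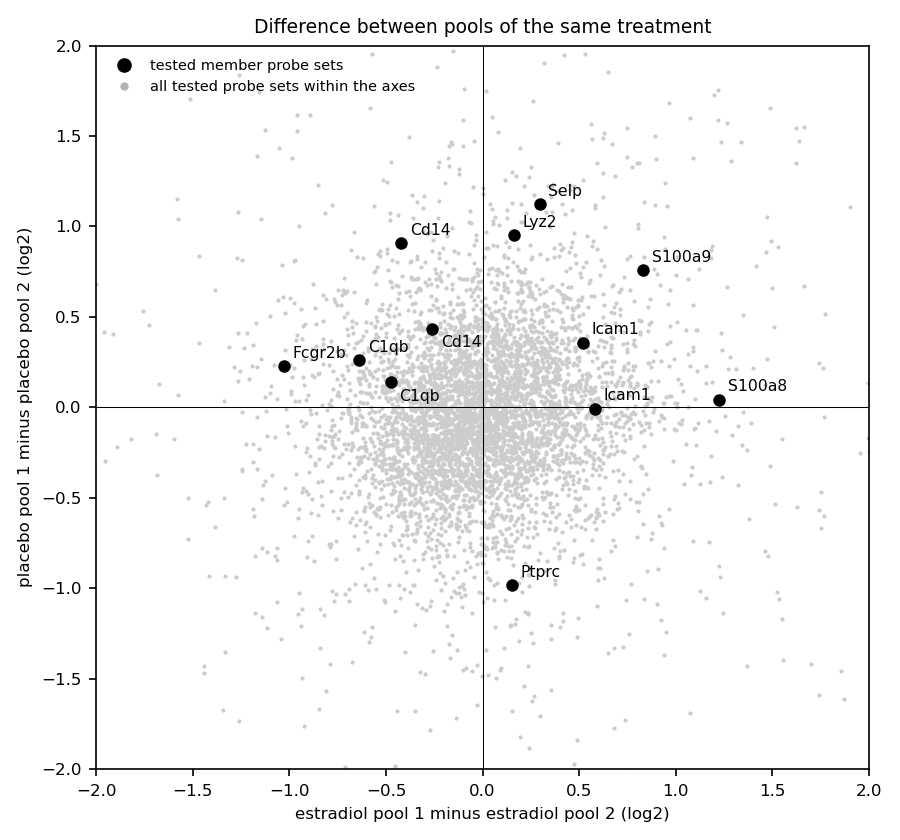
Log2 difference between pool 1 and pool 2 of estradiol (x axis) and of placebo (y axis) for the 12 tested member probe sets (black, named by gene) and all tested probe sets within the axes (grey). C1qb, Cd14 and Fcgr2b lie at the upper left, and Lyz2, S100a9, Selp and an Icam1 probe set at the upper right. S100a8 lies at the right, at only 0.04 on the y axis, and Ptprc alone lies far below 0 on the y axis.

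Genes of cytokines, cytokine receptors and transcription factors, some of which act upstream of members, did not pass. Of 14 tested genes of this list, which also holds Nfkbia, 5 were highest in estradiol 1 and placebo 1, and 4 in estradiol 2 and placebo 1. Nfkbia, the inhibitor that NF-kappaB itself induces, stood at 402.2 and 232.7 under estradiol, against 439.7 and 158.8 under placebo. Ccl2, the monocyte chemokine, stood at 126.2 and 141.9 under estradiol, against 343.6 and 75.8 under placebo, so that its high pool was placebo 1, as for Lyz2 and Selp. Between treatments 8 of the 14 were above 0 and 6 below, with a median of 0.03 (0.35 without placebo 1, -0.18 without placebo 2 and -0.07 without estradiol 1). Cebpb, a C/EBP factor of macrophages, had the highest value, with 109.4 and 81.6 under estradiol, against 64.5 and 44.9 under placebo and a log2 fold change of 0.66 ± 0.29 (SE; adjusted p = 0.998 in limma). Another C/EBP gene, Cebpd, stood at 149.4 and 147.0 under estradiol, against 175.7 and 164.0 under placebo, -0.18 ± 0.21 (SE). Its other tested probe set gave 0.32 ± 0.42 (SE). Il6r, an interleukin-6 receptor chain, had the lowest value of the list at -0.40 ± 0.25 (SE).

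For members whose range over the pools exceeded 1 on the log2 scale, the probe sets of other genes with the closest profile were found by the root mean square difference of centred log2 values over the 4 pools. For S100a9 these were Ndufb1 (0.0265), the inducible cyclooxygenase gene Ptgs2 (0.0486) and Gstm2 (0.0757). Ptgs2 stood at 109.7 and 58.0 under estradiol, against 132.0 and 78.3 under placebo. For S100a8 they were Ndufs8 (0.0553), the chemokine gene Cx3cl1 (0.0912) and Plec (0.0917). For Selp they were Ccnd3 (0.0700), Timp3 (0.0821) and Neurod2 (0.108). Those of Cd14 (AF087943_s_at) were Idi1 (0.0639), Cnn3 (0.0671) and Ephx1 (0.0770), those of Fcgr2b were Nnat (0.0505), Twf1 (0.0572) and Cyp2d4 (0.0574), and those of Ptprc were Ap2b1 (0.0690), Smad9 (0.0717) and Slc24a2 (0.0999). With 4 pools, such likeness describes these arrays alone.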

How the data were processed

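Each deposited value is a linear intensity of 1 probe set on 1 Affymetrix GeneChip array (array A of the rat U34 set). The authors had scaled the arrays to a common level, as the values show (trimmed means between 150.18 and 150.20). A scaling factor is among the quality checks of the series design text. No program for computing the intensities is named in the sources used here. Of 8799 rows, 59 controls were left out. Of the rest, 7006 had 1 gene symbol, 308 several and 1426 none. All 16 member probe sets had a gene identifier in the RefSeq table of build GRCr8, with 0 changed symbols.

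Medians of log2(intensity + 16) differed by at most 0.056 between arrays, so no further scaling was applied. Probe sets under the 40th percentile of mean intensity were left out, and 5244 were fitted with limma 3.58.1 in R 4.3.3 (lmFit, eBayes with intensity trend, two-sided, 2 residual and 5.63 prior degrees of freedom). The fit was tested on simulated data. The number of arrays limits the precision. Groups and pool numbers came from the sample titles, which do not say that a number pairs pools across treatments.

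Genes of the lists are represented by their brightest tested probe set. Members were named by rule with every probe set. Other genes named are partners fixed by name, the 2 highest and 2 lowest of a list where they bear on a result, and closest profiles. C5ar1, Ctss, Ttr, Itga2b, Pf4, Nfkbia, Ccl2, Cebpd, Slc2a1 and Nos3 were added after their values were seen. The members and lists were chosen with earlier results of these data known. Settings varied were the offset (1 and 64), the filter (none and 60th percentile), median centring, quantile normalisation, eBayes without trend, a replicate block, each array left out and the mean of a gene's probe sets.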

Additional observations from a re-analysis of the deposited data

How the results depend on the processing

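In limma, 0 probe sets passed the adjusted threshold under all 13 settings run, and 89 (60th percentile filter) to 337 (no filter) had an unadjusted p below 0.05. With the replicate block 0 passed and 210 had an unadjusted p below 0.05, against 161 without it, so the block changed no call. The sample titles give the pools a number and do not say that it pairs them, and pairing was not tested. The pool differences within estradiol and within placebo correlated at 0.0363 over probe sets. Of the members, C1qb X71127_g_at turned sign with median centring (-0.011) and quantile normalisation (-0.0085), and C1qb as the mean of its probe sets gave 0.0042, against -0.014 for its brighter one. The cause was not tested. No other member turned sign except with an array left out. With all 4 arrays, 0 members had an unadjusted p below 0.05 in any setting. In addition, the filter at the 60th percentile kept 8 of 12 member probe sets.

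With 1 array left out, log2 fold changes ranged from -0.33 to 0.30 and -0.22 to 0.26 for the C1qb probe sets X71127_at and X71127_g_at, -0.065 to 0.96 for Fcgr2b, -0.89 to 0.058 for Lyz2, -0.96 to 0.021 for Ptprc, -0.52 to 0.71 for S100a8 and -0.68 to 0.16 for S100a9. They ranged from -0.34 to 0.18 and -0.42 to 0.17 for the Icam1 probe sets D00913_g_at and D00913_at, -0.94 to 0.19 for Selp, and 0.10 to 0.53 and -0.074 to 0.83 for the Cd14 probe sets AF087944mRNA_s_at and AF087943_s_at. The remaining pool of a group is then assumed to vary like the others. For the 4 probe sets at background on all arrays, signal over background allows no statement.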

Other observations

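Lymphocyte and mast cell genes gave 8 tested genes of 23 on the array, 6 above 0 and 2 below, and 0 passed in limma (0 at an unadjusted p below 0.05). Cd4, a co-receptor of helper T cells that rat macrophages also carry, stood at 66.3 and 69.5 under estradiol, against 19.2 and 61.5 under placebo. Placebo 1 was at background, so no fold is given. MHC class II genes, which present antigen on microglia and macrophages, had 4 of 8 above 0 and 4 below, with a median of 0.04 (0.27 without estradiol 1, 0.18 without placebo 1 and -0.07 without placebo 2). RT1-Da had the highest value at 0.21 and RT1-DOa the lowest at -0.12.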
